A study of Mus musculus with 12 samples.

Results

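The wild type baseline of this study was the 3 RNA libraries of mouse embryonic fibroblasts (MEFs) that carried neither of the gene deletions under study. They were chosen by their title (WT, replicates 1 to 3) and are 3 of 12 libraries, the other 9 coming from 3 mutant genotypes. The WT embryos were male, of strain C57BL/6N and taken at stage E15.5 from interbred Gadd45a and Ing1 deficient mice. The cells were undifferentiated primary cultures, harvested at passage 4 when 80% confluent, and the labels name no added agent. MEFs are a mixed culture from a whole or partial embryo rather than a clonal line, and the labels name neither the region of the embryo that was plated nor whether the 3 replicates came from separate embryos. The spread between the 3 libraries given below may therefore be technical as well as biological. No genotype was compared with another here, and no test between groups was made.

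Fibroblasts are the connective tissue cells that make and remodel the extracellular matrix, the network of collagen fibrils, glycoproteins and proteoglycans that holds a tissue together. In culture they attach to the plastic, divide and take on a contractile state in which smooth muscle actin is assembled into stress fibres. They also keep a record of where in the body they came from, largely as the set of Hox genes they express: Hox genes lie in 4 clusters, and those numbered higher within a cluster are active farther toward the tail and the tips of the limbs. Primary cultures can carry over other cells of the embryo, such as macrophages, endothelium or muscle.

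The deposited gene counts came to 36593702, 37011208 and 33098932 reads for replicates 1, 2 and 3. Levels are given as CPM, a gene's count scaled to the library's total of gene counts (the usual CPM scale), or as TPM, for which the count is first divided by the gene's exon length. CPM served to follow a gene across libraries and TPM to set genes beside each other. A gene was called detected at 1 CPM or more in all 3 libraries. By that rule 12368 of 37991 gene identifiers (32.6%) and 11876 of 20230 protein-coding genes (58.7%) were detected, and 15828 identifiers had no read in any WT library. The 58.7% is the share to set beside each count of detected list members below. A count of 0 allows a level of up to 0.0820, 0.0811 and 0.0906 CPM in replicates 1, 2 and 3 (3 counts, counting error only). The median detected gene stood at 25.4 TPM.

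Genes of the collagen matrix led the WT transcriptome. Col1a1 (ENSMUSG00000001506, chromosome 11), which encodes the main chain of type I collagen, had the highest mean of all genes per length, with 13204, 12590.5 and 11569 TPM in replicates 1, 2 and 3. Its range overlapped that of mt-Co3, a mitochondrially encoded gene at the next rank, which was the higher of the pair in replicate 3. Its partner chain Col1a2 (ENSMUSG00000029661, chromosome 6) stood at 6634, 6788 and 6132 TPM, and Col3a1 (ENSMUSG00000026043, chromosome 1), the chain of type III collagen, at 5246, 5407 and 5096 TPM. By exon length, Col1a1 was above Col1a2, and Col1a2 above Col3a1, in every library. In CPM, Col1a2 was above Col1a1 in replicates 2 and 3 (20258 and 18249 CPM, against 19846 and 18185 CPM). The exons of Col1a2 sum to 12426 bases and its longest transcript to 5348, against 6563 and 5930 for Col1a1. The order of these chains therefore depends on the length used and is not settled. The rank of Col1a1 per length rests on the same choice. Dcn, which encodes decorin, a small proteoglycan that coats collagen fibrils, was far lower at 267, 318 and 261 TPM. These 4 genes are the markers that define the fibroblast label, and all 4 were detected and were lowest in replicate 3. Together they took 51804 ± 2619 (SD, n = 3) CPM, or 5.18% ± 0.26 (SD, n = 3) of all gene counts.

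**Figure D1:**
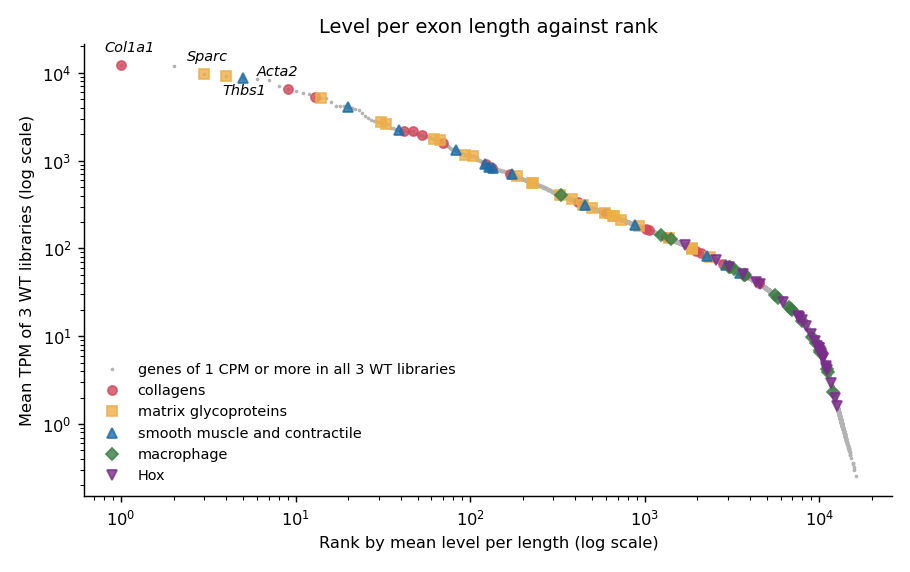
Mean level per exon length (TPM, log scale) of each gene detected in the 3 WT libraries against its rank (log scale), with the genes of 5 lists in colour. Col1a1, Sparc, Thbs1 and Acta2 took 4 of the first 5 ranks, whereas macrophage and Hox genes lay far lower, the highest of them being Lyz2 and Hoxb9.

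The other collagens spread over a wide range of levels. All 21 measured collagen genes were detected, and they held 7.78% ± 0.30 (SD, n = 3) of gene counts, with 11 of them among the 100 genes highest in CPM. After types I and III, the highest per length were Col6a1 (2199 ± 144 TPM), a chain of the beaded filaments around cells, and Col5a1 (2174 ± 97.5 TPM) and Col5a2 (1946 ± 53.6 TPM), whose type V fibrils sit in the core of type I fibrils. Col12a1 (1595 ± 77.3 TPM), a collagen that decorates fibrils, was at rank 9 of all genes in CPM but at rank 70 per length. The basement membrane chains Col4a1 (844 ± 36.3 TPM) and Col4a2 (704 ± 38.3 TPM) were also abundant. The lowest 3 were Col15a1 (39.9 ± 5.63 TPM), Col14a1 (49.8 ± 4.92 TPM) and Col7a1 (67.3 ± 3.84 TPM). Of the 21 collagens, 14 were lowest in replicate 3, against 38.7% of all detected genes.

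All 25 matrix glycoproteins were detected, with 11 among the first 100 genes in CPM and a combined share of 6.23% ± 0.08 (SD, n = 3) of gene counts. Sparc, a collagen-binding protein of bone and remodelling tissue, was at rank 3 of all genes per length at 9826, 9968 and 9495 TPM. Thbs1, which encodes thrombospondin and activates latent TGF-beta, was at rank 4 with 9166, 8849 and 9903 TPM. The ranges of Sparc and Thbs1 overlapped, so 3 libraries do not settle their order. Thbs1 and Fn1 each overlap another gene on the other strand (Gm29233 and Apol7d). Postn, which encodes periostin, a matrix protein that cross-links collagen, reached 4847, 5534 and 5225 TPM and was lowest in replicate 1. Fn1, which encodes fibronectin, stood at 2780.3, 2711 and 2804 TPM, with one of the smallest spreads among the abundant matrix genes (coefficient of variation 1.63%). Lower in the list were Tnc (1719.8 ± 194 TPM), Fbn1 (553 ± 38.5 TPM), the microfibril gene, and Eln (99.6 ± 13.6 TPM), the elastin gene. Of the 25, 9, 8 and 8 were highest in replicates 1, 2 and 3, against 32.4%, 33.2% and 34.4% of all detected genes. Lowest in those replicates were 2, 10 and 13 of them, against 35.6%, 25.7% and 38.7%, so few were lowest in replicate 1.

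Among the 8 small leucine-rich proteoglycans, all detected, Bgn (biglycan) stood at 5879.6, 5823 and 5596 TPM, rank 12 of all genes. Per exon length, Bgn lay between Col1a2 and Col3a1 in every library, but in CPM it was below both, at 8609, 8529 and 8175 CPM. It was far above its close relative Dcn. Aspn (asporin) followed at 2913 ± 260.0 TPM, then Ogn (446 ± 83.6 TPM), Fmod (271 ± 5.19 TPM) and Lum (239.6 ± 35.5 TPM). Omd (osteomodulin) was the lowest at 13.9 ± 1.90 TPM. Dcn, Lum and Ogn were all highest in replicate 2, with 375, 446 and 365 CPM for Dcn, 121, 163 and 138 CPM for Lum and 238, 334 and 252 CPM for Ogn.

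The enzymes and chaperones that mature collagen were all present. Each of 18 genes was detected, and their sum was 16167 ± 186 (SD, n = 3) CPM, a coefficient of variation of 1.15%. Serpinh1, the collagen chaperone of the endoplasmic reticulum, was at 4842, 4821 and 4414 TPM, and Lox, the lysyl oxidase that starts cross-links, at 3561, 3872 and 4076 TPM. Lox overlaps a gene known by a clone name on the other strand. The library kit keeps no strand, so reads of such overlapping genes cannot be told apart. P4hb (2776 ± 46.1 TPM), a subunit of prolyl hydroxylase, and Loxl2 (1736 ± 14.1 TPM) came next, and Loxl4 (49.7 ± 0.586 TPM) was the lowest. Of 11 metalloproteinases and inhibitors, 10 were detected. The inhibitors Timp2 (1216 ± 20.4 TPM) and Timp1 (956 ± 82.5 TPM), the membrane protease Mmp14 (863 ± 20.4 TPM) and the gelatinase Mmp2 (778 ± 32.6 TPM) were the highest. The secreted proteases of inflamed tissue were low: Mmp3 was at 10.4 ± 0.336 TPM and Mmp13 at 22.7 ± 1.353 TPM, and Mmp10 was under 1 CPM.

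Promoter sequence was looked at for the abundant genes because a TATA box, the element that positions transcription start, marks a minority of mammalian promoters. Windows of 300 bases (250 before to 50 after the start, RefSeq, GRCm38.p6) were found for 29 of the 50 genes most abundant per length. Of those, 10 (34.5%) held TATAAA or TATATAA on either strand, compared with 9.22% of 9553 detected genes and 17.3% of 27025 genes with a window. Windows of abundant genes could be found for only part of the list, and Col1a1 had none. The periostin window, with its TATA letters in capitals 28 bases before the start, and the Col1a2 window, which held neither TATA form but 2 CCAAT matches in capitals (1 of them on the other strand, read as ATTGG), show both kinds of window seen among matrix genes, written 5′ to 3′ along the gene.
Postn, chr3:54360857-54361156, plus strand: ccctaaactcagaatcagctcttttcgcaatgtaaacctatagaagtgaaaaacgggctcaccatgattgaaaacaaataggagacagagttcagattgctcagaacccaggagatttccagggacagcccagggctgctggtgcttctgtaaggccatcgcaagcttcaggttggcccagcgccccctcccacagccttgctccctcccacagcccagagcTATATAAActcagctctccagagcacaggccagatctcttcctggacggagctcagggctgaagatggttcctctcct
Col1a2, chr6:4505368-4505667, plus strand: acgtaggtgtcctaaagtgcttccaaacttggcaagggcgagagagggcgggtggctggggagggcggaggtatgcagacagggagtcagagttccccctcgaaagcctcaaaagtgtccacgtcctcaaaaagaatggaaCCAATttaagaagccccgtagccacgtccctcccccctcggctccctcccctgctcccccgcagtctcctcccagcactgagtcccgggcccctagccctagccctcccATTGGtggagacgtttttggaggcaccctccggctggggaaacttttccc
Among the collagens, 1 of 17 genes with a window held either TATA form and 9 of 17 (52.9%) held CCAAT on either strand, against 43.0% of detected genes. The match in these letters is a description and does not show that a factor binds there.

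Contractile genes stood close behind the matrix. All 13 were detected, and they held 1.55% ± 0.05 (SD, n = 3) of gene counts. Acta2, which encodes smooth muscle actin, was at rank 5 of all genes per length at 8258, 9238 and 8889.6 TPM. That level was above that of the cytoplasmic actin gene Actb (4121, 4310.3 and 4298 TPM) in every library. Reads with several places were counted to no gene. How many reads each actin gene lost in this way was not examined, so their order in RNA is uncertain. Tagln, which encodes the actin-binding transgelin, was at 3908, 4207 and 4143 TPM and overlaps Pcsk7 on the other strand. Myl9 (2234 ± 88.99 TPM), Flna (1319 ± 33.4 TPM) and Tpm1 (914 ± 15.54 TPM) were also high. The markers of a more mature smooth muscle cell were present at lower levels: Cnn1 (calponin) stood at 306, 300.0 and 328 TPM, Lmod1 at 173, 186 and 191 TPM and Myh11, the smooth muscle myosin, at 56.8, 69.2 and 67.5 TPM. The median SD of log2 CPM of the contractile genes was 0.0653, compared with 0.0619 for all detected genes of 100 to 1000 CPM and 0.0635 for those above. Of the 13, 7 were lowest in replicate 1, against 35.6% of all detected genes.

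The genes of energy and growth gave a second group of abundant transcripts. Of 13 mitochondrially encoded genes, 12 were detected, and they ranked among the highest per length: mt-Co3 stood at 11557, 11837 and 12579 TPM, mt-Co1 at 8073, 8271 and 8534 TPM and mt-Co2 at 6235, 6196 and 6427 TPM. All 12 were highest in replicate 3, against 34.4% of all detected genes, but the median deviation of replicate 3 was only 0.06 on the log2 scale. mt-Nd4l had no counted read, but it overlaps mt-Nd4 on the same strand, so its count is uncertain. Eef1a1, the translation elongation factor, was at rank 6 of all genes per length at 8571, 8399 and 8343 TPM. All 14 glycolysis genes were detected, led by Pkm (1498 ± 20.3 TPM), Aldoa (1223 ± 24.2 TPM) and Ldha (1188 ± 31.9 TPM). Gapdh was far below them at 56.5 ± 3.38 TPM. It has many near-identical pseudogene copies, and since reads with several places were not counted to a gene, its count is uncertain.

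Imprinted growth genes, which are expressed from 1 parental copy and are active in the fetus, were all detected (12 of 12). H19, a non-coding RNA that shares an imprinted region with Igf2, was at rank 11 per length with 5692, 5659 and 6195 TPM. Igf2, the fetal growth factor, stood lower at 633, 549.5 and 754 TPM and was highest in replicate 3. Grb10 (505 ± 14.04 TPM), Igf2r (292 ± 3.61 TPM), Cdkn1c (284 ± 37.7 TPM) and Meg3 (246 ± 39.5 TPM) followed. Dlk1, a fetal gene of fat cell precursors, gave 181, 172 and 109.7 CPM, with replicate 3 below the other libraries. Meg3, from the same imprinted cluster as Dlk1, was also lowest in replicate 3 (1069.9, 1238 and 893 CPM).

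Markers of fibroblasts and mesenchyme beyond the defining 4 were detected in full, 16 of 16. The receptors Pdgfra and Pdgfrb gave 655, 797 and 709 CPM and 632, 602 and 589 CPM. Thy1, a surface protein used to sort fibroblasts, gave 1092, 1080.2 and 1043 CPM, and Vim (vimentin) 2664, 2401 and 2423 CPM. The mesenchymal transcription factors Prrx1 (778 ± 57.97 CPM), Twist1 (63.9 ± 4.93 CPM) and Twist2 (84.96 ± 7.69 CPM) were present in all libraries. The lowest of the list was Fap, the fibroblast activation protease, at 12.1, 12.4 and 11.03 TPM. By these markers the libraries matched the fibroblast label.

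A macrophage signature was present in every library at a low level. Of 22 macrophage genes 21 were detected, and their sum was 304, 521 and 497 CPM in replicates 1, 2 and 3, or 0.044% ± 0.012 (SD, n = 3) of gene counts. The defining markers were all among them. Csf1r, the receptor for macrophage growth factor, gave 20.9, 30.99 and 29.9 CPM, Adgre1 (F4/80) 11.3, 18.6 and 20.001 CPM, C1qa, a complement component, 22.8, 39.9 and 32.96 CPM, and Spi1, the transcription factor PU.1, 3.25, 5.51 and 4.65 CPM. Each was lowest in replicate 1. Lyz2 (lysozyme) was the most abundant of the list at 273, 468 and 467 TPM. Mrc1, the mannose receptor of tissue macrophages, gave 18.01, 39.2 and 35.3 CPM and Cx3cr1, the fractalkine receptor, 10.2, 18.3 and 19.8 CPM. Cd163 was the exception, with 2, 3 and 4 reads. In bulk libraries, fewer cells of a type and less RNA per cell cannot be told apart.

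**Figure D2:**
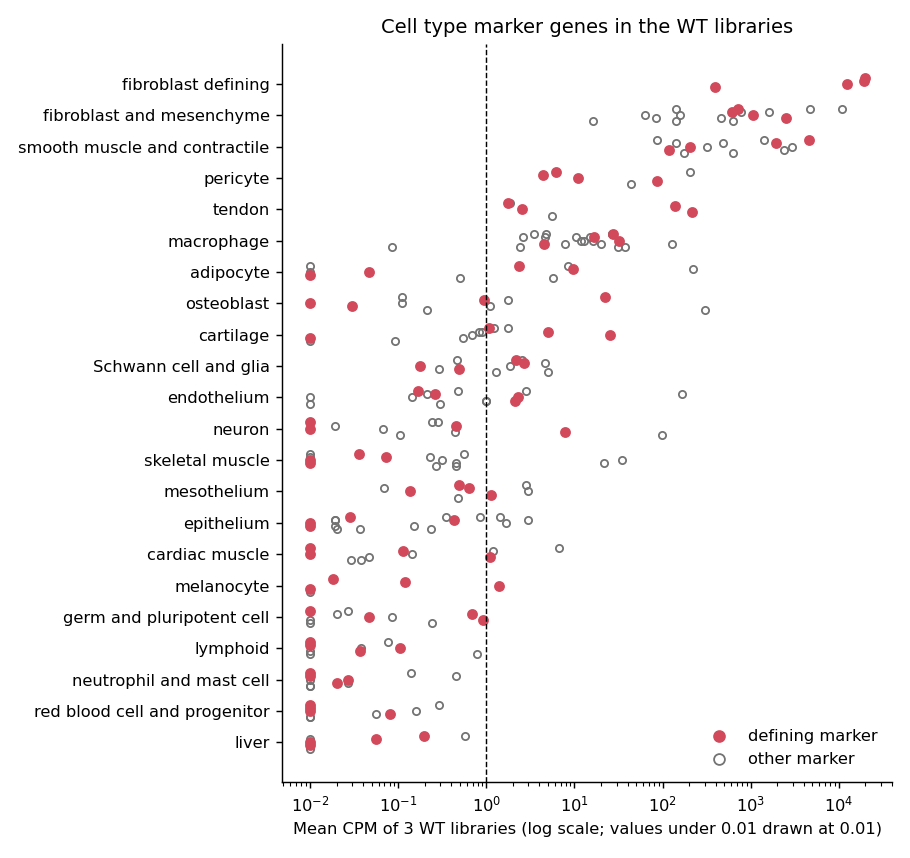
Mean CPM of 3 WT libraries (log scale, values under 0.01 drawn at 0.01) for each marker gene of 22 cell type lists, with defining markers in red, other markers as open circles and the detection level of 1 CPM as a dashed line. Fibroblast, contractile and pericyte markers lay at or above 1 CPM throughout, macrophage markers all but 1, and liver, blood and lymphoid markers lay below it.

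Other blood cells were not seen above the detection level. No gene of the lymphoid list (10 genes), the neutrophil and mast cell list (11 genes) or the red cell list (11 genes) was detected. Cd3e, S100a8 and S100a9, and the globin genes Hba-a1 and Hbb-bt had no read in any library. Il7r, at 0.415, 0.772 and 0.893 TPM, was the highest of the lymphoid list. No gene of the liver list (7 genes) or of the germ and pluripotent list (10 genes) was detected by the rule. In the liver list Alb gave 0.219, 0.189 and 0.181 CPM and Apoa2, the highest, 0.437, 0.648 and 0.634 CPM. In the germ and pluripotent list Pou5f1 had no read, but Nanog gave 0.738, 0.594 and 0.725 CPM and Ddx4 0.738, 0.865 and 1.12 CPM, above 1 CPM in replicate 3 alone. Within the blood lineage, the detected markers were those of macrophages.

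Endothelium was represented by 4 of 14 markers. Of its 4 defining ones, Kdr and Tek were detected at low level, while Pecam1 and Cdh5 were not detected. Pecam1 gave 0.191, 0.216 and 0.0906 CPM and Cdh5 0.301, 0.270 and 0.211 CPM, while Tie1 and Cldn5 had no read. Flt1, a VEGF receptor, gave 144, 172 and 181 CPM and by itself made up most of the summed endothelial level of 155, 183 and 192 CPM. Kdr, the other main VEGF receptor, was at 1.91, 2.95 and 2.08 CPM, and Tek at 2.51, 1.70 and 2.18 CPM. Flt1 therefore stood apart from the rest of its list.

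Epithelial markers were detected in 3 of 17 cases, all of them keratins: Krt19 (3.22, 2.65 and 3.05 CPM), Krt7 (1.48, 1.57 and 2.02 CPM) and Krt10 (1.28, 1.57 and 1.48 CPM). Epcam (2, 0 and 1 reads), Cdh1 (0.328, 0.378 and 0.574 CPM) and Esrp1 (no read) were below the detection level. Of 8 mesothelial markers 2 were detected, Bnc1 (2.81, 2.27 and 3.32 CPM) and Krt19, which is shared with epithelium and was highest in replicate 1. Wt1 gave 0.874, 1.16 and 1.39 CPM, and Gpm6a had 1, 1 and 5 reads. Msln, Upk3b, Lrrn4 and Upk1b were also not detected, and were highest in replicate 3: Msln had 8, 10 and 33 reads, Upk3b 11, 14 and 40, Lrrn4 2, 2 and 10 and Upk1b 11, 5 and 33. These are small counts. The sum over all 8 markers was 7.82, 6.94 and 11.4 CPM in replicates 1, 2 and 3.

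Pericyte and tendon markers were complete. All 6 pericyte genes were detected, with Mcam at 251, 251 and 261 TPM and Cspg4 (NG2) at 32.7, 27.5 and 29.3 TPM, but Rgs5, the most specific of them, was only at 6.36, 5.54 and 4.99 TPM. All 6 tendon genes were detected, led by Tnmd (tenomodulin) at 437, 364 and 484 TPM and Fmod at 265, 275 and 272 TPM. Scx, the tendon transcription factor, was near the detection level at 2.08, 1.24 and 1.93 CPM.

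Skeletal muscle was represented only by Des (30.9, 38.7 and 34.3 CPM) and Acta1 (23.6, 18.4 and 22.7 CPM), 2 of 14 markers. The muscle regulators Myod1 (3, 1 and 0 reads), Myf5 (0, 1 and 0 reads) and Pax7 (no read) were at or near 0. The cardiac list had 2 of 10 detected, Tnnt2 (7.95, 6.94 and 5.38 CPM) and Nppb (1.39, 1.13 and 1.06 CPM), and Myh6 and Nkx2-5 had no read.

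The cartilage regulator Sox9 gave 26.4, 22.8 and 26.6 CPM and type II collagen, Col2a1, 7.11, 3.27 and 4.50 CPM, and 3 of 12 cartilage markers were detected. In the osteoblast list (3 of 10), the regulator Runx2 gave 20.7, 20.6 and 24.9 CPM, whereas Sp7 (1.23, 0.757 and 0.846 CPM) and Bglap (0, 0 and 1 reads), which mark later stages, were not detected. Spp1 (osteopontin), which macrophages also express, gave 283, 223 and 402 CPM and was highest in replicate 3. It was thus the reverse of the macrophage genes in its order between replicates 1 and 2. Adipocyte markers were detected in 5 of 11 cases, with Lpl (lipoprotein lipase) at 212, 241 and 205 CPM and the regulators Cebpa and Pparg at 9.51, 10.6 and 8.49 CPM and 2.19, 2.38 and 2.51 CPM. The other detected members were the fatty acid carrier Fabp4 (4.54, 6.46 and 6.31 CPM) and the fatty acid transporter Cd36 (6.07, 11.5 and 7.70 CPM), both lowest in replicate 1 and both also known from macrophages. Among the 6 not detected, Adipoq had 4, 0 and 1 reads, Plin1 had 0, 1 and 0 and Cidec had none.

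A faint set of Schwann cell genes was detected, 6 of 11, including the neural crest regulator Sox10 (2.21, 2.46 and 1.87 CPM) and the receptors Erbb3 (2.19, 2.81 and 2.57 CPM) and Ngfr (4.92, 6.21 and 3.99 CPM). All 6 were highest in replicate 2, against 33.2% of all detected genes, but they lay at levels where counting noise is largest. Foxd3 (0.547, 0.648 and 0.272 CPM) was not detected. Of the neuronal list, only Tubb3 (93.2, 95.5 and 104 CPM) and Stmn2 (7.68, 6.24 and 9.52 CPM) were detected, and Snap25 and Elavl3 had 1 read each in the 3 libraries together. Among melanocyte genes only Pmel (1.42, 1.38 and 1.36 CPM) was detected.

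Hox transcripts came mostly from the middle paralog groups, and both ends of the clusters were low. Of 38 measured Hox genes 28 (73.7%) were detected, against 58.7% of all protein-coding genes. Hoxb9 was the most abundant at 99.4, 111 and 117 TPM, followed by Hoxc8 at 71.3, 66.9 and 83.8 TPM and Hoxc6 at 60.3, 60.8 and 64.01 TPM. Hoxb9 was above Hoxc8, and Hoxc8 above Hoxc6, in every library. Hoxd8 (51.8, 55.6 and 45.8 TPM), Hoxc10 (42.5, 41.3 and 40.4 TPM) and Hoxa10 (38.7, 38.2 and 39.7 TPM) came next, then Hoxb7 (21.6, 26.4 and 25.2 TPM). Ordered by mean level, 17 of the 27 neighbouring pairs of detected Hox genes overlapped in range over the 3 libraries.

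Paralog groups 5 to 8 held 47.0% and groups 9 and 10 held 38.6% of the summed Hox TPM, with all 18 genes of these groups detected. Groups 1 to 4 held 9.63% (8 of 11 detected) and groups 11 to 13 held 4.76% (2 of 9 detected). Within each cluster the level was not graded along the numbers: a single gene stood out in Hoxb (Hoxb9), Hoxd (Hoxd8) and Hoxa (Hoxa10), and 3 in Hoxc (Hoxc6, Hoxc8, Hoxc10). Hoxc6 and Hoxc8 are themselves neighbours among the measured genes, and Hoxc6 was the lower. The other measured neighbours of these genes were lower to varying degrees. The gap was wide for Hoxb8 (6.44, 6.79 and 7.13 TPM) beside Hoxb9 and for Hoxd9 (6.23, 6.95 and 3.90 TPM) beside Hoxd8. It was smaller for Hoxc9 (17.7, 14.4 and 17.3 TPM) beside Hoxc10 and for Hoxa11 beside Hoxa10. Hoxc5, the lower-numbered neighbour of Hoxc6, overlaps Hoxc10 on the same strand, so the counts of both are uncertain. Detection ended at Hoxa11, Hoxb9, Hoxc11 and Hoxd10. Hoxa11 (17.5, 17.3 and 16.3 TPM) was the only member of groups 11 to 13 above 10 TPM, and Hoxc11 was at 6.36, 5.29 and 5.06 TPM. Hoxa11 overlaps Hoxa11os on the other strand, so its count is uncertain. Hoxb1, the head-most gene of its cluster, had no read. Hoxd4 had no matched identifier and was not analysed here.

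**Figure D3:**
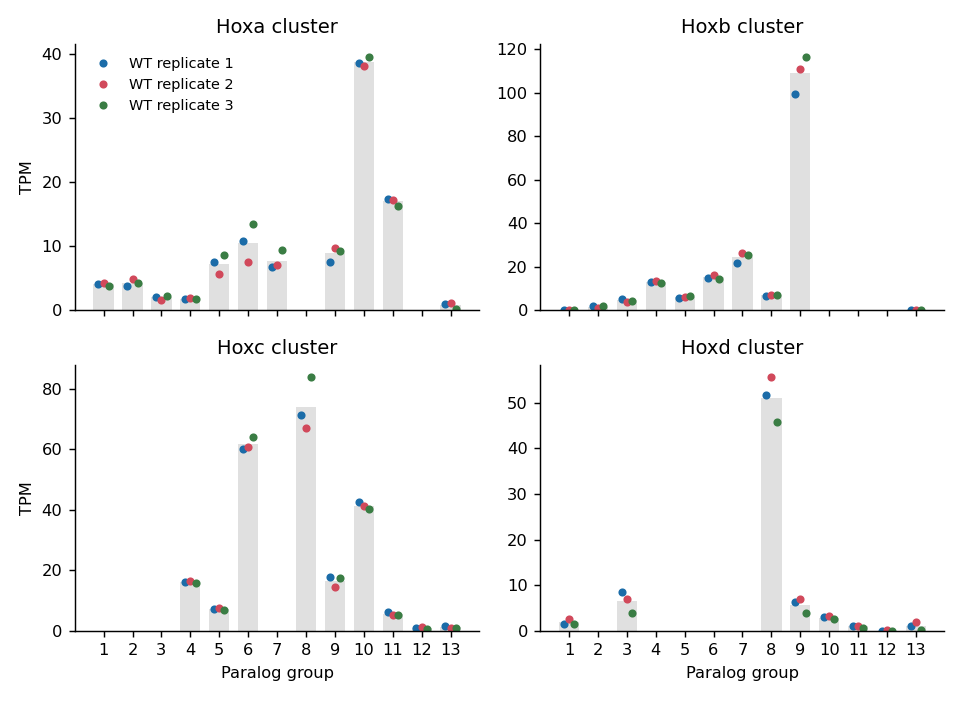
TPM of the Hox genes by cluster and paralog group, with 1 point per WT library and the mean of 3 as a bar; a paralog with no bar and no point has no gene or was not analysed. Hoxb9, Hoxc8, Hoxc10 and Hoxa10 stand above the nearest measured genes of their cluster in all 3 libraries. Hoxc6 stands above Hoxc5 but below Hoxc8. Hoxd8 stands above Hoxd9, and Hoxd4 on its other side was not analysed.

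The distal Hox genes differed between the libraries although they were low. Hoxa13, a gene of the hand, foot and genital region, had 21, 25 and 4 reads and Hoxd13 had 24, 42 and 5 reads in replicates 1, 2 and 3. Of the 9 genes of groups 11 to 13, detected or not, 8 were lowest in replicate 3, where 38.7% of all detected genes were lowest. Their summed level was 16.3, 15.9 and 12.99 CPM, most of it from Hoxa11 (9.59, 9.48 and 8.94 CPM). Hoxd3 (8.53, 7.08 and 3.90 CPM) and Hoxd9 (3.20, 3.57 and 1.99 CPM) were lowest in replicate 3 as well, but Hoxc8 (48.5, 45.5 and 56.9 CPM) and Hoxb9 (61.4, 68.6 and 71.8 CPM) were highest there. Of the proteins that bind DNA with Hox proteins, 8 of 9 were detected, among them Pbx2 (43.9 ± 2.75 TPM) and Meis3 (43.1 ± 2.78 TPM).

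Limb and body wall regulators were detected in 17 of 26 cases (65.4%), near the 58.7% of all protein-coding genes. Tbx5, which specifies the forelimb, stood at 4.92, 5.22 and 5.15 TPM. Tbx4 and Pitx1, which specify the hindlimb, stood at 3.51, 3.70 and 5.23 TPM and at 2.61, 1.95 and 3.13 TPM. Regulators of both limb pairs were therefore present at low level in each library. Tbx15, which acts in the body wall, limb skeleton and skin, was far higher at 230.3, 229 and 215 TPM. En1, which marks ventral limb ectoderm and a lineage of trunk dermal fibroblasts, gave 30.1, 28.1 and 30.1 CPM and Emx2 21.8, 21.3 and 21.9 CPM. Shh, Shox2 and Sall4 had no read.

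Of 21 regulators of trunk mesoderm and viscera, 9 (42.9%) were detected, below the 58.7% of all protein-coding genes. Osr1, a mesenchymal regulator of kidney and limb connective tissue, was the highest at 149, 146 and 112 TPM, and Osr2 was at 14.6, 13.3 and 7.83 TPM. Both were lowest in replicate 3. Tcf21, a marker of visceral mesenchyme, had no read, and the gut mesenchyme regulator Foxf1 (0.574, 0.351 and 0.211 CPM) and the heart regulator Gata4 (1, 2 and 0 reads) were not detected. Head regulators were detected in 4 of 19 cases (21.1%), among them Foxc1 (5.82, 4.19 and 5.59 CPM) and Six2 (2.71, 1.73 and 2.08 CPM). Both also act outside the head, and the forebrain gene Otx2 and the face gene Alx1 had no read. All 4 detected head regulators were lowest in replicate 2, against 25.7% of all detected genes.

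The signalling genes of a fibroblast were nearly complete, with 20 of 22 growth factor receptors and all 24 secreted signals detected. The receptors highest per length were Axl (488 ± 8.75 TPM), the gene of a survival receptor, Pdgfrb (462 ± 16.6 TPM), Pdgfra (299.7 ± 29.7 TPM), Igf2r (292 ± 3.61 TPM) and Tnfrsf1a (287 ± 3.88 TPM), the gene of the TNF receptor. Among FGF receptors Fgfr1 led at 181, 178 and 166 TPM and Fgfr2 was at 16.4, 15.48 and 15.8 TPM, while Fgfr3 and Fgfr4 were not detected by the rule. The TGF-beta ligand Tgfb3 (478 ± 12.5 TPM) was above Tgfb1 (29.4 ± 1.30 TPM) and Tgfb2 (20.2 ± 0.580 TPM) in every library. The matricellular genes Ccn1 (793 ± 29.8 TPM) and Ccn2 (624 ± 87.3 TPM) and the growth factor Igf2 were the highest secreted signals. Csf1, the growth factor for macrophages, gave 244, 239 and 243 CPM, nearly level over the 3 libraries, unlike the macrophage genes. Il34, the other ligand of the Csf1 receptor, was at 4.75, 3.51 and 3.63 CPM.

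The cells carried both division and arrest genes. All 25 cell cycle genes were detected, led per length by the D-type cyclin Ccnd2 (459 ± 23.5 TPM). Mki67, which marks dividing cells, gave 98.7, 127 and 116 CPM, Top2a, which untangles DNA, 120.5, 160.1 and 144 CPM, and Ccnb1, the mitotic cyclin, 17.4, 22.5 and 21.6 CPM. Each of the last 3 was lowest in replicate 1 and highest in replicate 2. All 11 arrest genes were detected, with Cdkn1a (p21) at 394, 335 and 378 CPM. Cdkn2a, which encodes p16 and p19ARF and rises with passage in mouse cells, gave 43.5, 32.2 and 34.8 CPM, highest in replicate 1. Immediate early genes, which a disturbance of the cells induces within minutes, were all detected, with Fos at 12.1, 10.7 and 11.7 TPM and Egr1 at 45.2, 40.4 and 40.7 TPM.

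Replicate spread was small for most genes. The common biological coefficient of variation, the spread that remains once counting noise is removed, was 6.71% (edgeR, 3 libraries). The median coefficient of variation of CPM fell with level, from 10.9% for 3163 genes of 1 to 10 CPM to 5.33% for 7105 genes of 10 to 100 CPM and 4.29% for 2016 genes of 100 to 1000 CPM. For the 84 genes above 1000 CPM, which held 25.8% of counts, it was 4.42%. Counting noise alone gives medians of 8.24%, 2.92%, 1.32% and 0.416% in these classes, closest to the observed spread below 10 CPM. Of 12368 detected genes, 490 (3.96%) differed by 1.5-fold or more between their highest and lowest library, and 45 (0.364%) by 2-fold or more. Chi-square divided by its degrees of freedom was 7.70 to 11.4 for the 3 pairs of libraries, above the 1 that counting noise gives, so no library was a second deposit of another.

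**Figure D4:**
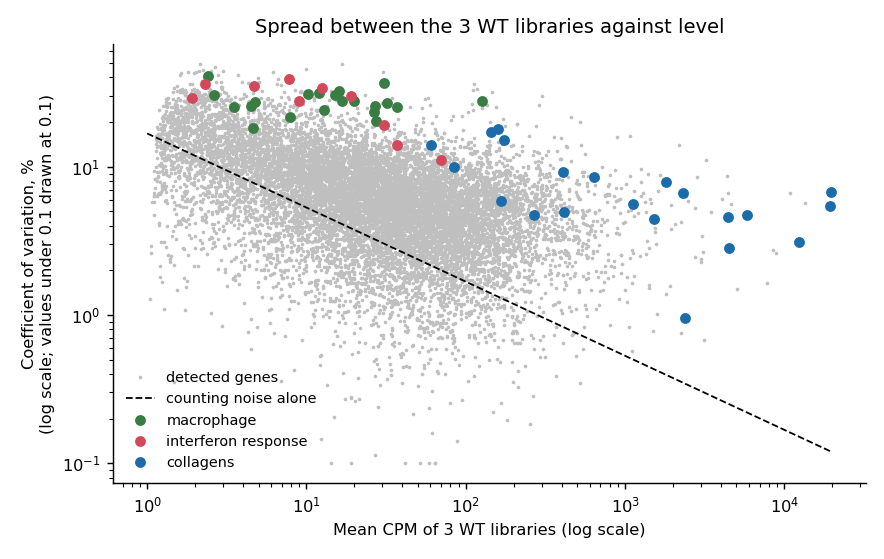
Coefficient of variation of CPM between the 3 WT libraries (percent, log scale, values under 0.1 drawn at 0.1) against mean CPM (log scale) for all detected genes, with counting noise as a dashed line and 3 lists in colour. Most macrophage and interferon genes lie at the upper edge of genes of their level, and collagens lie within the bulk of theirs or above it.

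Of the 12 genes that varied most out of 9205 genes of 10 CPM or more, 4 were on the macrophage list and 2 on the interferon list. Among the 9205 genes of 10 CPM or more, Msr1, a macrophage scavenger receptor gene that is not on the list, had the largest SD of log2 CPM, with 15.1, 38.1 and 37.9 CPM in replicates 1, 2 and 3. The 4 on the macrophage list were Mrc1, Cx3cr1, Ptprc (CD45) and Itgam (CD11b). The complement receptor gene C3ar1 (8.91, 17.5 and 16.2 CPM) was also among the 12. So was Gm49339 (7.35, 14.5 and 12.7 CPM), which overlaps Lilr4b and Lilrb4a, so its count is uncertain. All of these 7 were lowest in replicate 1. The interferon-induced Oasl2 (15.2, 14.9 and 7.64 CPM) and Isg15 (22.8, 21.9 and 12.5 CPM) were also among the 12 and were lowest in replicate 3. The rest were Il1rn, the antagonist of the interleukin-1 receptor (13.8, 10.3 and 26.1 CPM, highest in replicate 3), Pdgfrl (68.6, 148 and 123 CPM, lowest in replicate 1) and Ide, the insulin-degrading enzyme (157, 117 and 78.2 CPM, highest in replicate 1). Of the 100 genes with the largest spread, 14 were on the macrophage list and 3 on the interferon list. Of the 100, 48, 25 and 27 were lowest in replicates 1, 2 and 3, against 35.6%, 25.7% and 38.7% of all detected genes.

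The steadiest genes of 100 CPM or more were Cs, Tbl1x, Tmem127, Nbr1, Cct5 and Eif3h. Cs, which encodes citrate synthase of the mitochondrial matrix, gave 254.2, 254.5 and 253.6 CPM. Tbl1x, a subunit of a corepressor complex, gave 181.2, 181.9 and 181.5 CPM, and Eif3h, a translation initiation subunit, 214.2, 212.8 and 213.5 CPM. These 6 were picked for their small spread out of many genes, and 3 libraries give that spread little precision. Their coefficients of variation were 0.183% to 0.325%.

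Some gene lists moved together between the 3 libraries. All 21 detected macrophage genes were lowest in replicate 1, against 35.6% of all detected genes, with median deviations from the 3-library mean of -0.44, 0.26 and 0.18 on the log2 scale. Each of the 10 detected interferon response genes was lowest in replicate 3, against 38.7% of all detected genes, with median deviations of 0.22, 0.24 and -0.46. Irf7, which amplifies the response, gave 10.2, 8.84 and 4.38 CPM and Bst2 (tetherin) 35.9, 32.3 and 24.4 CPM. The interferon genes were thus as high in replicate 1, where macrophage genes were lowest, as in replicate 2. The lists were chosen with earlier results known, and what sets these replicates apart was not tested.

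**Figure D5:**
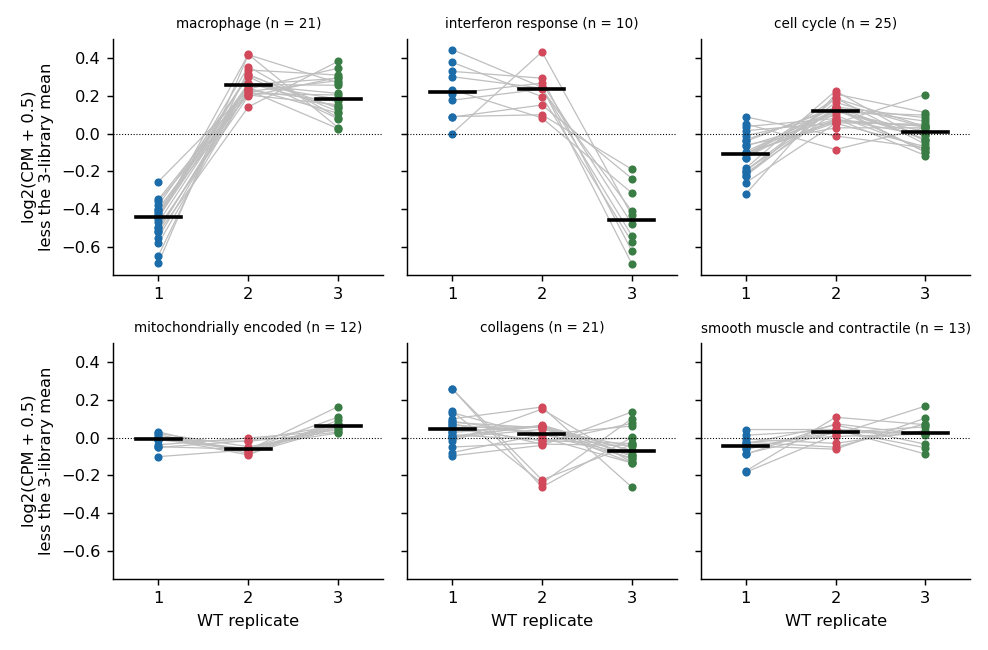
Log2(CPM + 0.5) of each detected gene less its mean over the 3 WT libraries, by replicate, for 6 lists (grey lines join a gene, black bars are medians). Macrophage genes sit lowest in replicate 1 and interferon genes in replicate 3, while contractile genes, collagens and mitochondrially encoded genes stay within 0.3 of their mean.

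Cell cycle genes also moved together, by less. Of 25, 22 were highest in replicate 2, against 33.2% of all detected genes, and 18 were lowest in replicate 1. The median deviations were -0.11, 0.12 and 0.01 on the log2 scale. Bub1, a mitotic checkpoint kinase, gave 20.9, 30.4 and 28.4 CPM, Cdk1, the mitotic kinase, 44.8, 56.1 and 55.5 CPM, and Ccna2, the S-phase cyclin, 39.95, 50.3 and 48.01 CPM. The D-type cyclins Ccnd1 (169, 158 and 151 CPM) and Ccnd2 (1073, 976 and 1058 CPM), which act before division is committed, were instead highest in replicate 1. The macrophage genes were low in the same replicate as these division genes, and whether the one bears on the other was not tested.

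Because the division genes moved together, their promoters were searched for CCAAT on both strands. Windows were found for 19 of the 25 genes, and 15 of them (78.9%) held it, compared with 43.0% of 9553 detected genes with a window and 41.1% of 27025 genes. No window of the 19 held TATAAA or TATATAA. A gene with several starts counted when any of its windows held the letters. The windows of 3 division genes that differ in the number of matches are shown 5′ to 3′ along the gene, with CCAAT or, for the other strand, ATTGG in capitals.
Ccnb1, chr13:100786437-100786736, minus strand: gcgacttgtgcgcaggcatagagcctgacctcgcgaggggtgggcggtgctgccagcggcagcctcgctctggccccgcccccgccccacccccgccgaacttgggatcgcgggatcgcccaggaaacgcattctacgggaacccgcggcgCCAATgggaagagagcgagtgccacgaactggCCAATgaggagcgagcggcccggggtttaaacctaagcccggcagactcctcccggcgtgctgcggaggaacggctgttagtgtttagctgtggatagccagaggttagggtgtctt
Cdk1, chr10:69352863-69353162, minus strand: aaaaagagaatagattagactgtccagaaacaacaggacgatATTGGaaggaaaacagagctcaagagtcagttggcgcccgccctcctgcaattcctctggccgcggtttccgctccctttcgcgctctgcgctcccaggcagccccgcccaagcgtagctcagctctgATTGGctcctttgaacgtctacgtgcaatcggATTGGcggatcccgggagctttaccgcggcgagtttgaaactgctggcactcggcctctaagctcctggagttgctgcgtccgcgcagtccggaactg
Top2a, chr11:99024140-99024439, minus strand: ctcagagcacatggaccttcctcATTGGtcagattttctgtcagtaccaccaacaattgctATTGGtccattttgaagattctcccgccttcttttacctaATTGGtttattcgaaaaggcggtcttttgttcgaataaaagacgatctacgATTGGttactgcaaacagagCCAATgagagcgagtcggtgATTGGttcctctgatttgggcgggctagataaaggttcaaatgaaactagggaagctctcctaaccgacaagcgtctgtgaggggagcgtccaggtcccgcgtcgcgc
Ccnb1 held 2 matches, Cdk1 held 3 and Top2a held 6. Macrophage genes, which also moved together, held the letters in 7 of 16 cases (43.8%). The share was 66.7% for Hox genes (14 of 21) and 60.0% for contractile genes (6 of 10), so a share above that of all genes was not confined to the division genes.

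The 2 genes deleted elsewhere in the series were expressed in every WT library. Ing1, which encodes a chromatin reader and growth inhibitor, gave 52.3, 50.9 and 54.7 CPM, and Gadd45a, a stress-induced gene linked to DNA repair and demethylation, 21.01, 21.3 and 21.4 CPM. Their coefficients of variation were 3.60% and 0.976%, against a median of 5.33% for genes of 10 to 100 CPM. Counting noise alone gives a median of 2.92% in that class. The value for Gadd45a lies under it, so it does not show that the gene is unusually even. The Y-linked genes Ddx3y (139, 147 and 159 CPM) and Eif2s3y (51.1, 66.3 and 64.4 CPM) were expressed and Xist was at 0.109, 0.0270 and 0.0906 CPM, so the 3 libraries matched their male label.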

How the data were processed

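RNA with poly(A) tails was sequenced for 51 cycles from 1 end, after library preparation with a TruSeq kit, per the labels' protocols. The authors deposited whole-number counts per gene for each library. The submitters' processing notes name the mapper TopHat2 2.0.9, its aligner Bowtie2 2.1.0, the build mm9 (NCBIM37), the counter HTSeq 0.5.4 and DESeq. How the counter treated strand, and the annotation release, are not given in the sources used here. Alignments that were not unique made up 17.9% to 18.2% of the entries the counter listed and were counted to no gene. A read with several alignments may be entered more than once, so this need not be a share of reads.

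The 5 summary lines (23.9% to 24.2% of entries listed) were removed and CPM computed from the gene total. Symbols (32938 identifiers), exon lengths for TPM and overlaps came from GENCODE release M21 of GRCm38, another build than the counts were made on, and so did chromosome names; the only coordinates given are those of RefSeq promoter windows, in GRCm38.p6. The 5053 identifiers without a symbol held 0.47% of counts. Spread is the SD of CPM or of log2(CPM + 0.5), computed with Python 3.11.15 and pandas 2.3.3; the common biological coefficient of variation came from edgeR 4.0.16 in R 4.3.3 after TMM scaling and was tested on simulated data. No test was made, since 1 group is described. ± is SD over 3 libraries unless another measure is named. Named genes were the 25 most abundant per length, the 10 most abundant by CPM, the 12 with the largest spread at 10 CPM or more, the 6 with the smallest at 100 CPM or more, Ing1, Gadd45a, all Hox genes and genes of 43 lists. Members and lists were chosen with earlier results of these data known. Of 570 list entries 567 matched an identifier; Hoxd4, Lhx8 and Cdkn2d did not and were not analysed here. Alternatives covered scaling, the detection level, gene length, leaving out each replicate and DESeq2 1.42.0. The mutant libraries were not analysed here. Some genes of the lists enter the counts but are not reported by name here.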

Additional observations from a re-analysis of the deposited data

How the results depend on the processing

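With another detection level (0.5 or 2 CPM), 1 library instead of 3, other scaling or each replicate left out, the genes detected ran from 11576 to 13167 and the Hox genes detected from 23 to 31, all within 1.5 times the values above. The summed fibroblast and macrophage levels moved by less than 1 SD under every scaling. Leaving out 1 of 3 replicates cannot move a mean by 1 SD, so that measure says nothing about their stability. Without replicates 1, 2 and 3 the macrophage sum was 509.0, 400.5 and 412.9 CPM, and the fibroblast sum 51038, 51058 and 53316 CPM. The share of the 100 most abundant genes was 27.3% and, without mitochondrially encoded genes, 27.1%. Of the 50 genes most abundant per length, 42 were shared when the longest transcript served as length and 32 when levels were not divided by length (CPM). The common biological coefficient of variation was 6.18% to 6.82% under other scalings and filters, 7.57% by DESeq2 and 6.28% to 7.49% with a replicate left out. No paired analysis was possible because 1 group is described. Depth limits the genes near 1 CPM. Levels per length depend on exon lengths from another annotation than the authors used. With 3 libraries, each gene's own SD has little precision.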

Other observations

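Lars2, which encodes the mitochondrial leucyl-tRNA synthetase, gave 3140, 3125 and 3099 CPM in replicates 1, 2 and 3 and was at rank 20 of all genes in CPM. It was chosen after its values were seen. The next of 17 mitochondrial tRNA synthetase genes was Iars2, with 92.9, 96.1 and 94.4 CPM, and the cause of the gap was not tested.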
